A study of Homo sapiens with 12 samples.

Results

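Cancer-testis antigens are proteins made in male germ cells and in some tumours. Their best known families (SSX, SPANX, MAGEA, MAGEB, MAGEC, GAGE, PAGE, XAGE, CTAG, CT45A and CT47A) lie in clusters on the X chromosome. Some members are near-identical copies, and others share little sequence. The genes of these families were followed in PANC-1, a human pancreatic carcinoma line, by RNA sequencing of 12 libraries in 4 groups of 3. All cells received 24 h of treatment: the vehicle DMSO, 30 nM chaetocin, 90 nM MLN8237, or 30 nM chaetocin with 90 nM MLN8237 (below, both compounds). Chaetocin is a fungal metabolite used as an inhibitor of histone H3 lysine methyltransferases such as SUV39H1, and MLN8237 inhibits Aurora A kinase. The labels of the combination libraries write MLN3237, which is taken here as MLN8237. The labels call the conditions triplicates and do not say whether each library had its own culture. P-values thus measure only how far these libraries spread, which may be technical.

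Members were taken by gene symbol from the deposited table: 127 of its 57773 genes begin with the letters of one of the families followed by an optional letter and a number. Of these, 110 are counted with the families. They include by name the antisense RNA MAGEA8-AS1 and SPANXA2-OT1, a row that overlaps SPANXA2 and had 0 counts. The other 17 match by letters only, namely SSX2IP, whose product binds an SSX protein, and 16 rows of CTAGE genes, which form another family. Among the 110 family members, 109 lie on the X chromosome and 12 are annotated as pseudogenes. A count in at least 1 of 12 libraries was found for 73 of the 127 members, 56 of them family members and 17 matched by letters only, and 54 had no count anywhere. Over all libraries 34 members reached 10 counts and 9 passed the expression filter needed for a test. The 5 family members among the 9 were SSX1, SSX6, MAGEA1, MAGEA3 and MAGEA6.

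In most somatic cells these genes are silent, and methylation of CpG sites in their promoters is the mark best known to hold them so, with H3K9 methylation and repressor complexes described at several. Loss of DNA methylation is known to switch many on, which is why they are used as a readout of germline gene silencing in tumour cells. SSX proteins act in the nucleus as repressors of transcription, SPANX proteins sit in the nuclei of sperm, and MAGE proteins bind RING-type ubiquitin ligases and steer their targets.

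The libraries held 49439795 to 63747510 gene counts. Counts of 2 to 9 were even in 67.2% to 69.7% of cases in every library, no source used here gives the counting unit, and counting intervals below, which take each count as an independent molecule, may therefore be too narrow. The epithelial markers KRT8 and KRT18 were abundant in vehicle (2290 and 1630 CPM, that is, counts per 1000000 gene counts after TMM scaling). Of 11 germ cell markers 7 had a count in some library, with SYCP3 (1736 counts in vehicle) and ACRV1 (194) the highest. In the hg19 coordinates SYCP3 overlaps CHPT1 and ACRV1 overlaps CHEK1, and whether reads of those genes entered the marker counts was not tested. DAZL, PRM1, PRM2 and TNP1 had 0 counts in every library. The 3 treated libraries numbered 3 deviated together from their group means (r = 0.44 to 0.46 across genes, against at most 0.32 for other libraries of the same number), so calls are also given without them. MLN8237 replicate 3 differed most from the other libraries of its group.

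Levels by family come first. Over the 17 SSX genes the summed level was 0.0122 CPM in vehicle, 1.87 ± 0.345 with chaetocin, 3.27 ± 1.17 with both compounds and 0.048 ± 0.0156 with MLN8237 (mean ± SD, n = 3). The 10 SPANX rows had 0 counts in vehicle and with MLN8237. Without SPANXB2, whose counts equal those of SPANXB1, they summed to 0.111 ± 0.0174 and 0.274 ± 0.172 CPM with chaetocin and both compounds. The 16 MAGEA rows held 3.03 ± 0.3 CPM in vehicle and between 2.84 and 3.31 CPM in the treated groups. CT45A, CT47A, CTAG, GAGE and XAGE together had at most 6 counts per family in any group. These sums are descriptions, since families were not tested as sets, and in bulk RNA more expressing cells and more RNA per cell cannot be told apart.

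**Figure D1:**
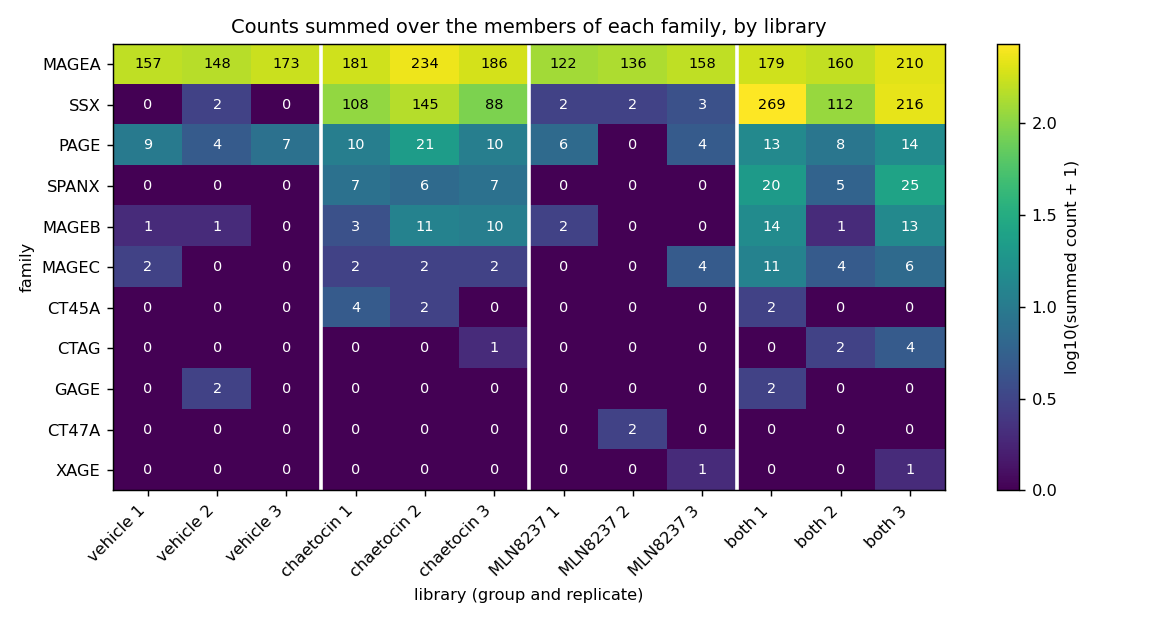
Counts summed over the members of each family (rows) in each of the 12 libraries (columns), printed in each cell, with colour on a log10(count + 1) scale. SSX goes from 0 to 2 counts in the vehicle libraries to 88 to 145 with chaetocin and 112 to 269 with both compounds, while MAGEA stays between 122 and 234 throughout. SPANXB2, equal in counts to SPANXB1, is left out of the SPANX sum.

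SSX1, the family member known for its fusion to SS18 in synovial sarcoma, carried most of the SSX signal. It had 0 counts in all 3 vehicle libraries, 82, 103 and 54 counts with chaetocin, 0, 2 and 0 with MLN8237, and 182, 88 and 164 with both compounds. Neither chaetocin group overlapped vehicle or MLN8237, whereas the combination and chaetocin groups overlapped each other through combination replicate 2. The gene (ENSG00000126752) lies in the authors' hg19 coordinates at chrX:48114752-48126879 and is protein-coding. Its upstream sequence is shown beside that of SSX5 because both genes had counts in every chaetocin library and none in vehicle, and the copies face opposite ways. Both are from RefSeq on GRCh38.p14, run 5′ to 3′ on the gene's strand, end before the first annotated transcript start, and have CpG sites in capitals: chrX:48255142-48255316 on the + strand and chrX:48196796-48197045 on the - strand.
SSX1: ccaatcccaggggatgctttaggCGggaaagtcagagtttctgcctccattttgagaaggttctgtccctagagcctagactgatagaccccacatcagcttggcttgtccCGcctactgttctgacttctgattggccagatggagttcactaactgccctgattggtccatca
SSX5: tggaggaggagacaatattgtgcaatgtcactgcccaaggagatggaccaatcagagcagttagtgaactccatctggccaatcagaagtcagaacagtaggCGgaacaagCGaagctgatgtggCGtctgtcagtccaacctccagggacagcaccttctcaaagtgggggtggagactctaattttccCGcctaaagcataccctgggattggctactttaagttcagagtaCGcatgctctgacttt

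SSX1 holds 2 CpG sites in its 175 bases and SSX5 holds 5 in its 250. Over 216 aligned bases the upstream windows of SSX1 and SSX5 are 88.9% identical, but in opposite orientation, and the same holds for SSX1 against SSX2, SSX2B, SSX4, SSX4B and SSX7 (87.5% to 92.7%). The window of SSX5 matches those of SSX2, SSX2B, SSX4, SSX4B and SSX7 in the same orientation (90.0% to 93.9%). A CCAAT box (CCAAT on either strand) occurs in the 250 bases before the start in 8 of 8 RefSeq SSX windows, against 32.0% of all 35116 promoters. These 8 windows belong to 7 genes and are near copies, so they are not independent of each other. The longer CCAATCAGA, which contains CCAAT, is in 3 of 8, those of SSX1, SSX5 and SSX7, against 1.48% of all promoters. SSX windows had a median of 7 CpG sites against 11 over all promoters. Of the SSX genes that share this window, SSX1 and SSX5 had counts in every chaetocin library, whereas SSX2 had no count anywhere. For SSX2, 100% of the 50-base stretches of the transcript also occur in another gene, against 8.81% for SSX1.

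Chaetocin alone was compared with vehicle to ask which members respond to it. SSX1 and SSX6 rose, 2 of the 9 members tested, and 0 fell, where 12.6% of all 22831 genes tested rose and 11.9% fell (edgeR quasi-likelihood test, Benjamini-Hochberg adjusted p under 0.05). Both genes passed the expression filter through the libraries in which they were high, so their share is not read against the background. SSX1 was at least 69.7-fold higher, taking a floor of 3 counts over the vehicle group, at 1.31 ± 0.332 CPM (edgeR adjusted p = 4.66e-05, higher in 3 of 3 libraries). Here and below, "at least" bounds only the group at 0 counts and takes the counts of the other group as they stand. With the 3 treated libraries numbered 3 left out, an alternative added after seeing the data, SSX1 and SSX6 were still called and CTAGE4 was called lower.

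SSX6, annotated as the pseudogene SSX6P in GENCODE v29 (chrX:47967367-47980068, hg19), lies near SSX1. Its counts were 0, 2 and 0 in vehicle, 17, 26 and 21 with chaetocin, 0, 0 and 0 with MLN8237, and 55, 6 and 26 with both compounds. Every library with chaetocin lay above every library without it, and the combination libraries spread from below to above the chaetocin group. The ratio of chaetocin to vehicle was 28 (95% exact counting interval 7.45 to 236), with an edgeR adjusted p of 0.00848. Only 1.35% of the 50-base stretches of SSX6 occur in another gene, SSX1 among them.

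The other SSX genes had too few counts for the filter. SSX5 (chrX:48045656-48056199, hg19) had 0 counts in vehicle and MLN8237, 4, 2 and 5 with chaetocin and 9, 10 and 12 with both compounds. SSX8, the pseudogene SSX8P, had 0 counts in the same groups, 2, 9 and 4 with chaetocin and 12, 4 and 6 with both compounds. Neither gene's chaetocin libraries overlapped vehicle, and SSX5 did not overlap between chaetocin and both compounds either. Against the floor, SSX5 was at least 3.21-fold and SSX8 at least 4.38-fold higher with chaetocin, and at least 9.08-fold and 6.45-fold higher with both compounds. These folds leave out the counting error of the treated groups, which is large at so few counts. SSX3 had 3, 0 and 2 counts with chaetocin, 0, 0 and 2 with MLN8237 and 2, 4 and 2 with both compounds, after 0 in vehicle. SSX4 was seen mainly with both compounds, at 3, 0 and 6 counts, beside 1 count in MLN8237 replicate 1. The remaining SSX rows had at most 6 counts over all 12 libraries, and 5 of the 17 had none. With no expression filter 6 of the 73 member rows then tested rose with chaetocin, against 6.98% of the 41618 genes tested. They were SSX1, SSX6, SSX5 (edgeR adjusted p = 0.0338), SSX8 (0.021) and the paired SPANXB1 and SPANXB2 rows (0.0136).

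**Figure D2:**
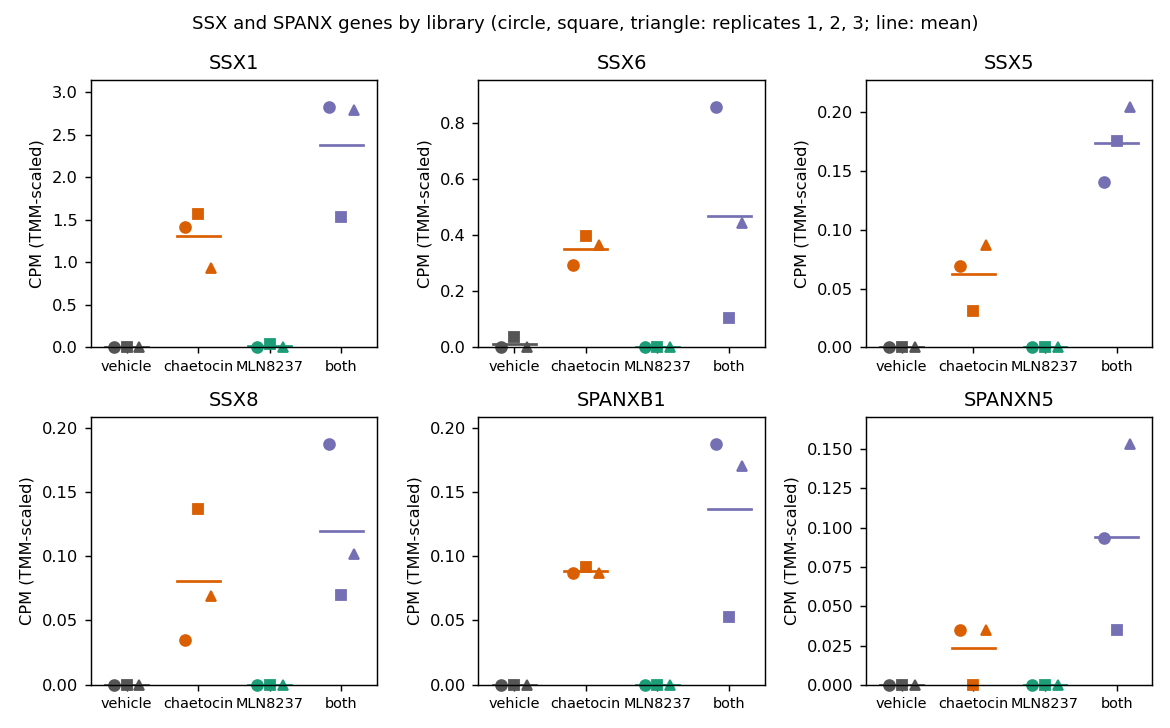
TMM-scaled CPM (vertical axis, linear, from 0) of 4 SSX and 2 SPANX genes in the 4 groups (horizontal axis), with circle, square and triangle for replicates 1, 2 and 3 and a line at the group mean. SSX1 reaches 0.935 to 1.57 CPM with chaetocin and 1.54 to 2.83 with both compounds, and in SSX6 and SPANXB1 combination replicate 2 lies below the chaetocin libraries.

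Genes around SSX1 were read as a comparison of place, with a window of 250 kb on each side that was chosen after seeing the data. It held 31 genes that are no members, of which 5 were tested, and 1 of them rose with chaetocin and with both compounds while 0 fell. The gene that rose was PORCN, which encodes a palmitoyl transferase of Wnt proteins, with a log2 fold change of 0.78 (edgeR adjusted p = 0.00455) and 0.71 (0.00442). Over the 734 tested genes of the X chromosome, 10.5% rose with chaetocin and 17.4% with both compounds.

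SPANX genes encode small proteins of the sperm nucleus. SPANXB1 and SPANXB2 had equal counts in every library and are counted here as 1 gene, since GENCODE v29 has a single gene under the second identifier. This gene had 0 counts in vehicle and MLN8237, 5, 6 and 5 with chaetocin and 12, 3 and 10 with both compounds. The chaetocin libraries were close together, and combination replicate 2 lay below them. The gene was at least 4.67-fold higher than vehicle with chaetocin and at least 7.33-fold with both compounds. SPANXN5, on the other arm of the chromosome, had 2, 0 and 2 counts with chaetocin and 6, 2 and 9 with both compounds, against 0 in the other groups, or at least 4.98-fold with both. SPANXN1, SPANXN2 and SPANXN3 had at most 4 counts each, and 4 of the 10 SPANX rows had none. The upstream windows of both genes that responded are shown, as they are near copies that differ in CpG content (RefSeq, GRCh38.p14, CpG sites in capitals): chrX:141002344-141002590 on the + strand and chrX:52797428-52797677 on the - strand.
SPANXB1: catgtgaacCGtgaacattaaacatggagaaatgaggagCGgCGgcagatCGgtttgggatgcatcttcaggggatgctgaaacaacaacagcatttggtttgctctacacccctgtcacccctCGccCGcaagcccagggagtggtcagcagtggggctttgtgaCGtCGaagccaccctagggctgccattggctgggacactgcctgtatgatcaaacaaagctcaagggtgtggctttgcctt
SPANXN5: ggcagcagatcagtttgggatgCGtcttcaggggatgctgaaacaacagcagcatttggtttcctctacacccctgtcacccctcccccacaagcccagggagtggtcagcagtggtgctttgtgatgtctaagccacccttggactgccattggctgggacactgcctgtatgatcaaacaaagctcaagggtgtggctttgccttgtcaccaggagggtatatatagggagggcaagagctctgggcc

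SPANXB1 has 8 CpG sites in 247 bases and SPANXN5 has 1 in 250, although 94.3% of 210 aligned bases are the same. CCAAT is found in 7 of 7 SPANX windows of 250 bases. No MAGEA, SSX or SPANX window held TATAAA on either strand, against 10.7% of all promoters.

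MAGEA genes held most of the family counts in vehicle. MAGE-A proteins pair with RING ubiquitin ligases, and MAGEA3 and MAGEA6 are known partners of TRIM28. MAGEA6 (chrX:151867214-151870825, hg19) had 122, 123 and 143 counts in vehicle, 141, 147 and 142 with chaetocin, 97, 99 and 133 with MLN8237, and 107, 115 and 134 with both compounds. After scaling the groups overlapped, at 2.45 ± 0.181, 2.38 ± 0.123, 2.25 ± 0.595 and 1.99 ± 0.308 CPM. The log2 fold change of MAGEA6 was -0.04 with chaetocin (95% interval -0.47 to 0.38, edgeR adjusted p = 0.907) and -0.31 with both compounds (-0.74 to 0.12, adjusted p = 0.249). MAGEA3 had 15, 7 and 14 counts in vehicle, 15, 24 and 15 with chaetocin, 6, 17 and 16 with MLN8237 and 15, 14 and 21 with both, and did not pass in any comparison. The transcripts of MAGEA3 and MAGEA6 cannot be fully separated, as 56.2% and 56.6% of their 50-base stretches occur in another gene, and no source used here says how reads with several matches were counted. The upstream window of MAGEA6, shown as that of an active member (chrX:152769748-152769939, - strand, RefSeq, GRCh38.p14, CpG sites in capitals), has 7 CpG sites in 192 bases.
MAGEA6: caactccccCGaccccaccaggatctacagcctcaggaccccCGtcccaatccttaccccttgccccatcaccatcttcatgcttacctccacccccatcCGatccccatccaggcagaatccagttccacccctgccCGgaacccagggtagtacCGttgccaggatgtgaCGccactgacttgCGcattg

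Over the full 250 bases before the start the windows of MAGEA3 and MAGEA6 are identical, 250 of 250. GGATGTGA, a motif holding the GGA core of ETS factor sites, occurs in 16 of 19 RefSeq windows named after MAGEA genes (84.2%) and in 0.965% of all promoters. It was found in no SSX or SPANX window. The 19 MAGEA windows carry 13 names, so some genes enter with more than 1 window, and the windows are not independent of each other. MAGEA windows had a median of 11 CpG sites, the same as over all promoters.

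MAGEA1, the gene through which the family was first cloned, had 14, 12 and 4 counts in vehicle, 15, 42 and 20 with chaetocin, 15, 20 and 4 with MLN8237 and 28, 18 and 30 with both compounds. Its chaetocin and combination libraries lay at or above the highest vehicle count, yet in CPM chaetocin replicate 1 (0.26) fell within the vehicle range of 0.0715 to 0.294. The log2 fold change of MAGEA1 was 1.11 with chaetocin (standard error 0.564, edgeR adjusted p = 0.176) and 1.12 with both compounds (standard error 0.564, adjusted p = 0.135), which did not pass. MAGEA4 had 15, 25, 9 and 29 counts in the vehicle, chaetocin, MLN8237 and combination groups, and the ratio of both compounds to vehicle was 1.7 (counting interval 0.882 to 3.41). MAGEA8 had 0, 1 and 5 counts in vehicle, 2, 0 and 0 with chaetocin, 0 in every MLN8237 library and 9, 4 and 3 with both. MAGEA8-AS1, an antisense RNA that overlaps no other gene of the table, had 0 counts in vehicle and MLN8237 and 4 and 7 counts with chaetocin and both compounds. MAGEA11 had 0, 5, 0 and 6 counts in the same order of groups.

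MAGEB and MAGEC genes were near the floor. MAGEB17 had 0 counts in vehicle, 0, 5 and 4 with chaetocin, 2, 0 and 0 with MLN8237 and 4, 0 and 5 with both compounds. MAGEB6 had 0 counts in vehicle and MLN8237, 0, 2 and 4 with chaetocin and 3, 0 and 4 with both. The 11 MAGEB rows together had 2 counts in vehicle, 24 with chaetocin, 2 with MLN8237 and 28 with both compounds. MAGEC1 had 2, 0 and 0 counts in vehicle, 2, 0 and 2 with chaetocin, 0 with MLN8237 and 11, 4 and 4 with both. For MAGEC1 the combination libraries did not overlap any other group, with a ratio of 8.35 to vehicle (counting interval 2.01 to 73.9) and of 4.77 to chaetocin (1.58 to 19.3). In the edgeR fit with no expression filter neither of these changes passed (adjusted p = 0.135 and 0.694).

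PAGE genes encode small disordered proteins related to GAGE. PAGE1 was present in vehicle, at 8, 4 and 7 counts, with 10, 21 and 8 with chaetocin, 6, 0 and 4 with MLN8237 and 8, 6 and 6 with both compounds. It had fewer counts with both compounds than with chaetocin, at a ratio of 0.515 (counting interval 0.285 to 0.905), where chaetocin replicate 2 was the highest library. This change did not pass in the edgeR fit with no expression filter (adjusted p = 0.699). PAGE2B had 1 count with chaetocin and 3, 0 and 6 with both compounds. GAGE, XAGE and CT47A genes had 4, 2 and 2 counts in all over 12 libraries, and CTAG1A and CTAG1B, the genes of the tumour vaccine target NY-ESO-1, had 1 count each. For a member at 0 in a group, 3 counts over the group allow up to 0.0166 to 0.0202 CPM. Sequence shared with other copies reaches 100% of the 50-base stretches in CT47A1 and GAGE12C.

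**Figure D3:**
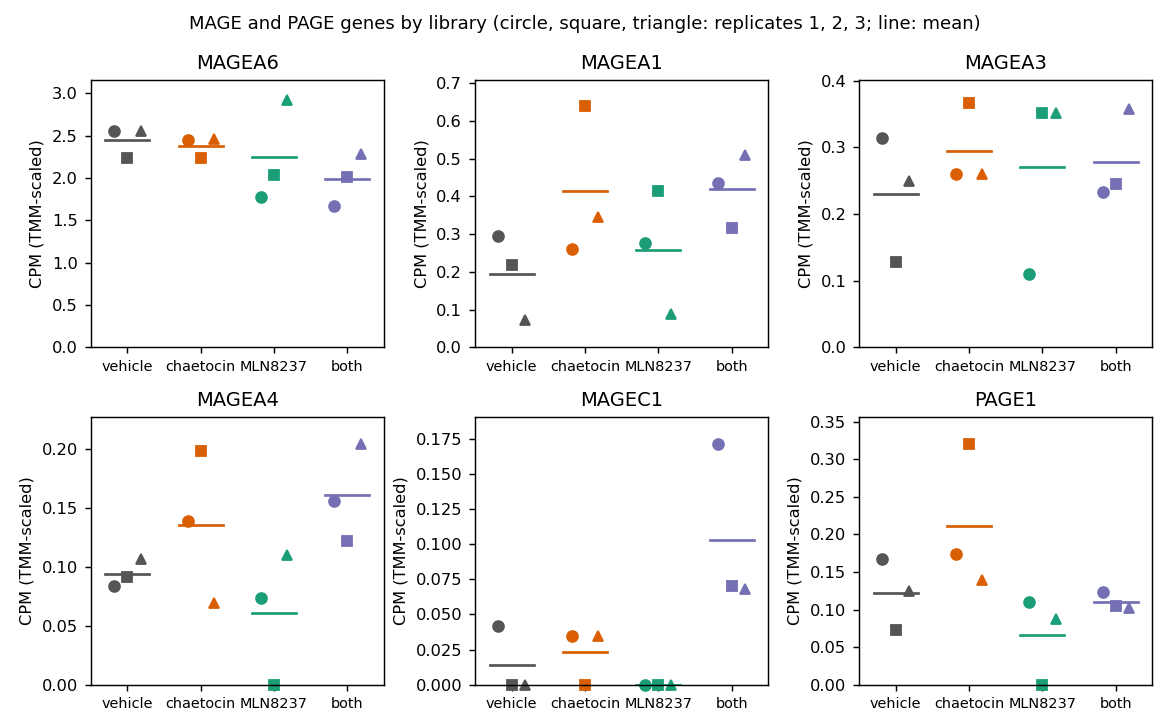
TMM-scaled CPM (vertical axis, linear, from 0) of 5 MAGE genes and PAGE1 in the 4 groups, with circle, square and triangle for replicates 1, 2 and 3 and a line at the group mean. MAGEA6 lies between 1.67 and 2.92 CPM in all groups, and MAGEC1 is highest with both compounds at 0.068 to 0.171 CPM.

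Scaled to gene length and library total (RPKM, computed from the counts), MAGEA6 led the family members in vehicle at 1.28 ± 0.0914, followed by PAGE1 at 0.178 ± 0.0685, MAGEA1 at 0.11 ± 0.0638 and MAGEA3 at 0.101 ± 0.0412, the last 3 within their spread of each other. With chaetocin SSX1 stood at 1.03 ± 0.271 beside MAGEA6 at 1.3 ± 0.0587, within the spread. With both compounds SSX1 reached 1.97 ± 0.645 against 1.13 ± 0.165 for MAGEA6, and combination replicate 2 put SSX1 (1.23) inside the MAGEA6 range of 0.979 to 1.31.

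With MLN8237 alone 0 of the 9 members were called, and 1 gene of 22831 in all (0.00438%) rose. No member had an unadjusted p under 0.05 in the edgeR test, and DESeq2 and limma-voom also called 0. SSX1 and SSX6 were at or under the floor of 3 counts in both groups, so no fold is given.

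Both compounds together were compared with vehicle, with chaetocin and with MLN8237. Against the same vehicle libraries as chaetocin alone, SSX1 and SSX6 rose again, 2 of 9, beside 20.1% of all genes, and 0 fell, beside 18.3%. SSX1 was at least 127-fold higher (edgeR adjusted p = 9.57e-06) and SSX6 38.2-fold (counting interval 10.3 to 321, adjusted p = 0.00265). Against MLN8237 the same genes rose, beside 23.3% of all genes, and 0 members fell, beside 22.7%, with a ratio of 179 for SSX1 (counting interval 49.2 to 1480, adjusted p = 1.4e-05) and at least 23.9-fold for SSX6 (0.00128). With no expression filter 7 of the 73 member rows then tested rose against vehicle, beside 11.7% of genes. SPANXN5 (adjusted p = 0.0217) joined the 6 that rose with chaetocin. Against MLN8237 9 of 73 rose, beside 13.1% of genes, with MAGEA8 (0.0231) and MAGEC1 (0.0142) added.

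Between both compounds and chaetocin alone 0 members passed, as did 0% of all genes by edgeR, of which 2677 had an unadjusted p under 0.05. SSX1 averaged 2.39 ± 0.735 CPM with both and 1.31 ± 0.332 with chaetocin. Its log2 fold change was 0.86 (standard error 0.345, 95% interval 0.10 to 1.62, edgeR adjusted p = 0.373). Without combination replicate 2 it was 1.09 (adjusted p = 0.131), and without the 3 treated libraries numbered 3 it was 0.55 (0.493). SSX6 gave 0.42 (-0.96 to 1.79, adjusted p = 0.829). SSX1 and CTAGE4 were the 2 members with an unadjusted p under 0.05, and DESeq2 and limma-voom called 0 members. The interaction asks whether the log2 change with both compounds differs from what the single changes add up to, and it also gave 0 members and 0% of genes by edgeR (3108 at an unadjusted p under 0.05), with 1 member, CTAGE4, at an unadjusted p under 0.05 and 0 by DESeq2 and limma-voom. For SSX1 and SSX6 the interaction rests on groups with 0 to 2 counts and is not described further.

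**Figure D4:**
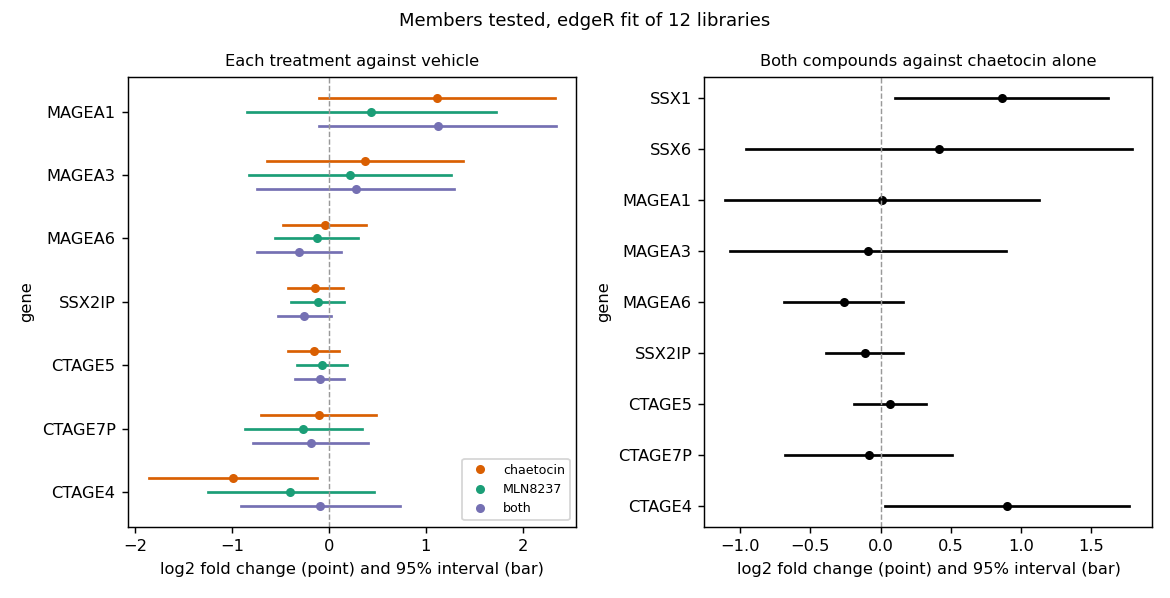
Log2 fold changes (points) with 95% intervals (bars) from the edgeR fit for the members tested, each treatment against vehicle (left, without SSX1 and SSX6, whose vehicle counts are at the floor) and both compounds against chaetocin (right). In the left panel the interval of CTAGE4 with chaetocin lies below 0, and in the right panel those of SSX1 and CTAGE4 lie above 0, none passing adjustment over all genes.

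Detection was counted as well as level. Of 101 members at 0 in every vehicle library, 26 (25.7%) had a count in some chaetocin library and 5 (4.95%) in every one, against 20.3% and 2.77% of all 24527 genes at 0 in vehicle. With MLN8237 the members came to 13 (12.9%) and 0, against 10.3% and 0.298%. With both compounds 35 (34.7%) had a count in some library and 8 (7.92%) in every one, against 25.4% and 4.59%. SPANXB1 and SPANXB2 enter these as 2 rows. The 5 rows seen in every chaetocin library were SSX1, SSX5, SSX8 and the pair of SPANXB rows, and both compounds added SSX3, SPANXN5 and MAGEB2. MAGEB2 had 9 counts over all libraries.

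Per library, 7 to 9 family members had a count in vehicle, 20, 24 and 24 with chaetocin, 8, 6 and 9 with MLN8237, and 32, 21 and 31 with both compounds. Combination replicate 2 thus lay within the chaetocin range. SPANXB1 and SPANXB2 enter these numbers as 2 members. The mean RPKM over all genes at 0 in vehicle moved alongside, at 0.00787 to 0.0113 with chaetocin, 0.00332 to 0.00488 with MLN8237, and 0.0171, 0.0105 and 0.0181 with both compounds. Its part in the members' detection was not tested.

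**Figure D5:**
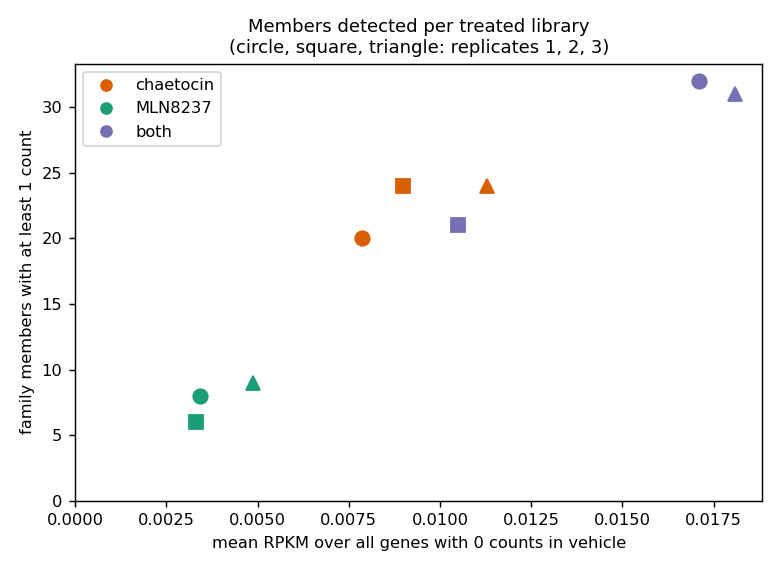
Number of family members with at least 1 count (vertical axis) against the mean RPKM over all genes with 0 counts in vehicle (horizontal axis) in the 9 treated libraries, coloured by group, with circle, square and triangle for replicates 1, 2 and 3. Combination replicates 1 and 3 lie at the upper right with 32 and 31 members, and combination replicate 2 lies with the chaetocin libraries at 21. SPANXB1 and SPANXB2 count as 2 members.

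Of the 17 members matched by letters only, 13 had a count in vehicle and 4 passed the filter. SSX2IP, a centrosome and cell junction protein gene on chromosome 1, had 8831 to 10196 counts in vehicle and 6588 to 10702 in treated libraries, with a log2 fold change of -0.14 with chaetocin (edgeR adjusted p = 0.475) and -0.26 with both compounds (0.137). CTAGE5, named MIA2 in GENCODE v29 and known for protein export from the endoplasmic reticulum, had 1148 to 1371 counts in vehicle and a log2 fold change of -0.16 with chaetocin (0.378). CTAGE4 had 21, 21 and 26 counts in vehicle, 5, 15 and 19 with chaetocin, 16, 13 and 19 with MLN8237 and 29, 21 and 23 with both. Its log2 fold change with chaetocin was -0.99 (standard error 0.403, edgeR adjusted p = 0.0928). Of its 50-base stretches 99.2% occur in other CTAGE genes. CTAGE7P had 68, 68 and 76 counts in vehicle and a log2 fold change of -0.11 with chaetocin (0.828). Of the other CTAGE rows, CTAGE9 had 63 counts over all libraries, CTAGE8 53, CTAGE3P 48, CTAGE6 45, CTAGE10P 14, CTAGE13P 14, CTAGE11P and CTAGE16P 4 each, CTAGE12P 3 and CTAGE14P 1. The 2 rows named CTAGE15 overlap and have the same 58 counts. CTAGE1 had 1 count in vehicle and 14 with both compounds, a ratio of 12.3 (counting interval 1.87 to 520). It did not pass in the edgeR fit with no expression filter (adjusted p = 0.126).

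Related genes outside the families were read from lists. Medians over all genes tested were 0.01 with chaetocin and 0.02 with both compounds, where 12.6% and 20.1% of genes rose and 11.9% and 18.3% fell. Of 6 tested type II MAGE genes, which are expressed in many tissues, 0 rose and 1 fell with chaetocin (median log2 fold change -0.04), and 1 rose and 2 fell with both compounds (-0.05). MAGED1 fell by 0.49 on the log2 scale with chaetocin (edgeR adjusted p = 0.00337). Of 6 RING ligase partners of MAGE proteins, 1 rose with chaetocin (median 0.23) and 0 with both compounds (0.24): TRIM28, the partner of MAGEA3 and MAGEA6, had log2 fold changes of 0.24 (adjusted p = 0.0362) and 0.18 (0.0752).

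Other X-linked cancer-testis genes resembled the GAGE and MAGEB groups in their low counts. Of 22 genes found, 16 had a count and 0 passed the filter, and their summed level was 0 to 0.073 CPM in vehicle, 0.0173 to 0.168 with chaetocin, 0.0413 to 0.129 with MLN8237 and 0.245 to 0.578 with both compounds. The combination libraries did not overlap any other group in this sum, which was not tested. Over all genes at 0 in vehicle, the mean RPKM was 0.00787 to 0.0113 with chaetocin and 0.0105 to 0.0181 with both compounds. TEX11, a meiotic gene, had 0, 7, 3 and 24 counts in the 4 groups, and TKTL1, a transketolase-like gene, 2, 2, 0 and 20. Both had the most counts of this list with both compounds, and both were named after their values were seen.

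Among 7 tested autosomal cancer-testis genes, 2 rose and 0 fell with chaetocin (median 0.57), and 3 rose and 1 fell with both compounds (0.21), where over all genes 12.6% rose and 11.9% fell with chaetocin and 20.1% rose and 18.3% fell with both. PIWIL2, which acts in the piRNA pathway, rose by a log2 fold change of 1.64 with chaetocin (edgeR adjusted p = 0.000607) and of 1.83 with both compounds (0.000136). SPAG6, an axoneme gene of sperm, had 2 counts in vehicle, 24 with chaetocin and 60 with both compounds (edgeR adjusted p = 0.0207 and 0.000896). It passed the expression filter through the libraries in which it was high, so the share of this list that rose is not read against the background. PRAME, an antigen that was already high in vehicle at 106 CPM, fell by 0.48 with both compounds (0.00267), and its change with chaetocin was -0.23 (0.133). CTCFL, a germline paralogue of CTCF, had 7, 5, 14 and 4 counts in the vehicle, chaetocin, MLN8237 and combination groups and was not tested.

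Of 5 tested germ cell markers, 2 rose with chaetocin (median 0.71) and 4 with both compounds (1.78), beside 12.6% and 20.1% of all genes. Among them were DDX4, an RNA helicase of germ cells, and STRA8, which acts at entry into meiosis. They had 1 and 0 counts in vehicle and 30 and 20 with chaetocin. Both passed the expression filter through the libraries in which they were high, so the share of markers that rose is not read against the background. DDX4 overlaps SLC38A9, as SYCP3 and ACRV1 overlap other genes, and whether reads of such genes entered the counts was not tested. The summed level of the 11 markers was 11.7 to 13.1 CPM in vehicle, 8.94 to 11.4 with chaetocin, 13.7 to 24.7 with MLN8237 and 9.82 to 11.7 with both compounds. SYCP3, of the synaptonemal complex, held the largest share of this sum, at means of 11, 8.48, 16.6 and 7.95 CPM in the same order, and ACRV1, of the acrosome, followed with 1.21, 1.32, 1.19 and 1.94 CPM. Over all genes 11.9% fell with chaetocin and 18.3% with both compounds. Of 6 epithelial markers 5 fell and 0 rose with chaetocin (median -0.88) and with both compounds (-1.12). Their summed level was 4040 to 4640 CPM in vehicle, 2250 to 2420 with chaetocin, 4350 to 5130 with MLN8237 and 1850 to 2180 with both. Their part in the members' levels was not tested.

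A list of genes that silence germline genes or bear on DNA methylation, which includes TET1, TET2 and TET3, whose enzymes oxidise methylated cytosine and so oppose silencing, moved in both directions. Of 21 tested, 6 rose and 3 fell with chaetocin (median 0.03), and 6 rose and 7 fell with both compounds (-0.02), again beside 12.6% higher and 11.9% lower and 20.1% higher and 18.3% lower over all genes. TET3 is among those that rose in both comparisons, TET2 among those that fell in both, with log2 fold changes of -0.72 (edgeR adjusted p = 0.0454) and -0.87 (0.0128), and TET1 among those that fell with both compounds (-1.23, 0.0136). DNMT3B, a de novo DNA methyltransferase, rose by a log2 fold change of 0.86 with chaetocin (edgeR adjusted p = 0.00566), TET3 by 0.86 (0.00248) and PCGF6 by 0.37 (0.00532). HDAC1, a histone deacetylase, fell by 0.43 on the log2 scale (0.00159). DNMT1, which keeps CpG methylation through cell division, had a log2 fold change of -0.09 with chaetocin (0.736) and -0.08 with both compounds (0.719). SUV39H1, a histone methyltransferase that chaetocin is used to inhibit, had -0.26 with chaetocin (0.0792) and fell by 0.33 with both compounds (0.0206). Other H3K9 methyltransferase genes of the list went both ways. SETDB1 rose by 0.33 with chaetocin (0.0194) and 0.31 with both compounds (0.0181). With both compounds SUV39H2 rose by 0.24 (0.0315), EHMT2 fell by 0.49 (0.00183) and EHMT1 had 0.02 (0.904). None of these last genes passed with chaetocin.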

How the data were processed

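PANC-1 RNA was sequenced in 4 groups of 3 libraries. The submitters' processing notes name CASAVA 1.9, TopHat 12.0.6 (as printed there), HTSeq and the build hg19, but not what each did. The authors deposited raw counts per Ensembl gene and library, and RPKM values, per the file headers. The deposited RPKM values were not used, and RPKM given here was computed from counts, the table's gene length and summed gene counts. No source used here says whether counting used strand.

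Counts were tested with edgeR 4.0.16 (R 4.3.3): default filter by group (22831 genes), TMM, 4 group means over 12 libraries, robust quasi-likelihood F test and Benjamini-Hochberg adjustment over all genes tested, called at 0.05. The fit was tested on simulated data. Folds against 0 counts use a floor of 3 counts over the group at 0, and leave out the counting error of the other group. Ratios of low counts carry 95% exact binomial intervals, for counting error only. Members and lists were chosen with earlier results of these data known. Named are members that passed the filter or had at least 10 counts, and up to 4 genes of each list by smallest p, with CTCFL, PRAME and TRIM28 always. Further genes of the X-linked, germ cell and silencing lists are named outside this rule. Promoters are RefSeq windows on GRCh38.p14, where 60 of 110 family members matched by symbol, and shared 50-base stretches come from GENCODE v29 transcripts. Alternatives were RLE scaling, no filter, a filter of 1 CPM in 6 libraries, DESeq2 1.42.0, limma-voom 3.58.1, a replicate block, the compared groups alone and each library left out.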

Additional observations from a re-analysis of the deposited data

How the results depend on the processing

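SSX1 and SSX6 were called for chaetocin against vehicle, the combination against vehicle and the combination against MLN8237 in every alternative that measured them, and the count of members called depended mainly on the filter. With no filter 6, 7 and 9 of 73 members were called for chaetocin against vehicle, the combination against vehicle and the combination against MLN8237. Added were SSX5, SSX8 and the SPANXB rows in all 3, SPANXN5 in both combination comparisons, and MAGEA8 and MAGEC1 against MLN8237. With the stricter filter the count was 0 in each, because 4 members and no SSX gene were measured. With only the groups compared it was 1 for both combination comparisons, as SSX6 was not measured there. Leaving out 1 library gave 2 to 5 members in each of the 3 comparisons, with 10 to 14 members measured in place of 9. Some of those gained (SPANXB1, SPANXB2, SSX5) were not measured with all libraries, but CTAGE4 and SSX2IP were: without chaetocin replicate 3, CTAGE4 was called lower (log2 fold change -1.42, adjusted p = 0.0438), and without combination replicate 2, SSX2IP was (-0.40, 0.0299). Over all genes the combination against chaetocin gave 0 by edgeR, 36 with no filter, 296 by DESeq2, 1 by limma-voom and 573 without combination replicate 2.

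Same-numbered libraries were compared for pairing, and 9 of 18 pairs had a correlation of deviations over 0.1. Pairs with a vehicle library ranged from -0.15 to 0.14, and pairs of treated libraries from -0.01 to 0.46. The numbers were not taken to pair the samples in the main fit. Whether treated libraries of the same number share a batch was not tested. With the replicate block the members called were 2 for chaetocin, 0 for MLN8237 and 3 for the combination against vehicle, 0 against chaetocin, 2 against MLN8237 and 0 for the interaction, the added one being SSX2IP, lower (-0.27, adjusted p = 0.0346). Of 416 alternatives for single genes 397 kept direction and call, 4 gained a call, 0 lost one and 15 changed sign, each of the last in a value that did not pass. By leaving out 1 library, SSX6 between the combination and chaetocin ranged from -0.36 to 0.87, MAGEA6 from -0.10 to 0 with chaetocin and -0.36 to 0.01 with MLN8237, MAGEA3 from -0.07 to 0.61 with MLN8237 and -0.03 to 0.54 with both compounds, MAGEA1 from -0.05 to 0.83 with MLN8237, CTAGE7P from -0.26 to 0.07 with chaetocin and -0.38 to 0.02 with both compounds, and CTAGE5 from -0.18 to 0.07 with MLN8237. Without the 3 treated libraries numbered 3, CTAGE4 with chaetocin was -1.40 (adjusted p = 0.034), and CTAGE7P with chaetocin, CTAGE7P with both compounds, CTAGE5 with MLN8237 and MAGEA3 with MLN8237 changed sign to 0.08, 0.03, 0.07 and -0.01. The cause was not tested. At this depth 34 of 127 members reached 10 counts over 12 libraries. For the rest, low expression and depth cannot be told apart. Where sequence is shared, reads lost to near-identical copies cannot be told apart from these either. The share of 50-base stretches found in another gene ran from 0% in MAGEB16 and PAGE3, which had no count, to 100% in CT47A1.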
